A study of Mus musculus with 42 samples.

Results

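The collagen chain genes encode the polypeptides that wind into collagen triple helices. They were taken as every row of the deposited expression table whose symbol reads Col, a number, a and a number, which gave 44 of 25700 genes. RNA had been sequenced from 42 retinas of C57BL/6J mice, 1 retina per mouse and 6 mice in each of 7 groups. Mice breathed 7% oxygen for 6 h (07-06h-ZH) or 14% oxygen for 6 h (14-06h-ZH), 48 h (14-48h-ZH) or 11 weeks (14-11w-ZH) at the normal pressure of Zurich, at about 400 m, or they lived for 48 h or 7 weeks at 3450 m on the Jungfraujoch, where the pressure was 64.65 kPa (14-48h-JFJ and 14-07w-JFJ). The Normoxia group stayed in room air in Zurich for 11 weeks. Age at the start was 10 weeks in 07-06h-ZH, between 9 and 11 weeks in 14-06h-ZH and 14-48h-ZH, 9.5 weeks in 14-11w-ZH and Normoxia, and 9 weeks in both JFJ groups. Normoxic mice were therefore older at sampling than mice exposed for 6 h or 48 h, and than those of 14-07w-JFJ. The paper gives different light cycles for Zurich and the Jungfraujoch. No transgene or deletion is given for any group.

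Collagens are grouped by how their chains assemble. Fibrillar chains build banded fibrils, and the FACIT chains (fibril-associated collagens with interrupted triple helices) decorate them. Type IV chains form the sheet of every basement membrane, type VI chains form beaded filaments around it, type VIII chains build hexagonal lattices, and the transmembrane collagens sit on the cell surface. In the eye, type II and type IX collagen make up the vitreous gel, and type IV collagen is found in the inner limiting membrane, in Bruch's membrane, around retinal vessels and in the lens capsule.

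By this scheme the 44 genes comprised 11 fibrillar, 6 type IV, 6 type VI, 9 FACIT, 3 network-forming, 1 anchoring fibril, 2 multiplexin, 4 transmembrane and 2 other chains, on 15 chromosomes. Levels are given as FPKM, the number of fragments scaled by transcript length and by the mapped reads of the library, as the authors deposited them. The number of reads in genes ranged between 13986520 and 33595709 (median 18437268) in the 36 libraries from which it could be recovered. Because FPKM is scaled by gene length, levels of different chains can be set side by side. Replicates are separate mice. Sample codes fall into 5 series, and only 14-11w-ZH shares a series with Normoxia and 14-48h-ZH with 14-06h-ZH, so that in every other comparison the series and the exposure cannot be told apart. Y-linked transcripts were present in all 6 mice of 14-11w-ZH and all 6 of Normoxia, whereas each of the remaining groups had 3 such mice. Retinas of the JFJ groups were isolated without a microscope. The label of retina is borne out by its rods, of which 6 markers summed to between 14512 and 20774 FPKM in every library.

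Over all 42 mice, 14 chains had a mean level over 10 FPKM, 22 lay between 1 and 10 FPKM, and 8 were under 1 FPKM. No chain was listed at 0 in every mouse, and 41 were above 0 in all mice. The 10 highest chains made up 72.9% of the summed collagen level. These were Col4a1 (mean 77.4 FPKM) and Col4a2 (36.8 FPKM), the most widespread basement membrane chains, Col2a1 (65.7 FPKM), the chain of vitreous and cartilage fibrils, Col6a1 (37.8 FPKM) of the beaded filaments, Col23a1 (35.8 FPKM), a transmembrane collagen, Col9a1 (35.2 FPKM), which coats type II fibrils, Col18a1 (27.3 FPKM), the precursor of endostatin, Col7a1 (16.5 FPKM) of the anchoring fibrils, Col4a3 (16.3 FPKM), a type IV chain of specialised basement membranes, and Col20a1 (16.1 FPKM), a FACIT chain. Col1a1 and Col3a1, main chains of skin and scar fibrils, were low, with medians of 0.957 to 1.91 FPKM and 0.0907 to 1.21 FPKM over the 7 groups.

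**Figure D1:**
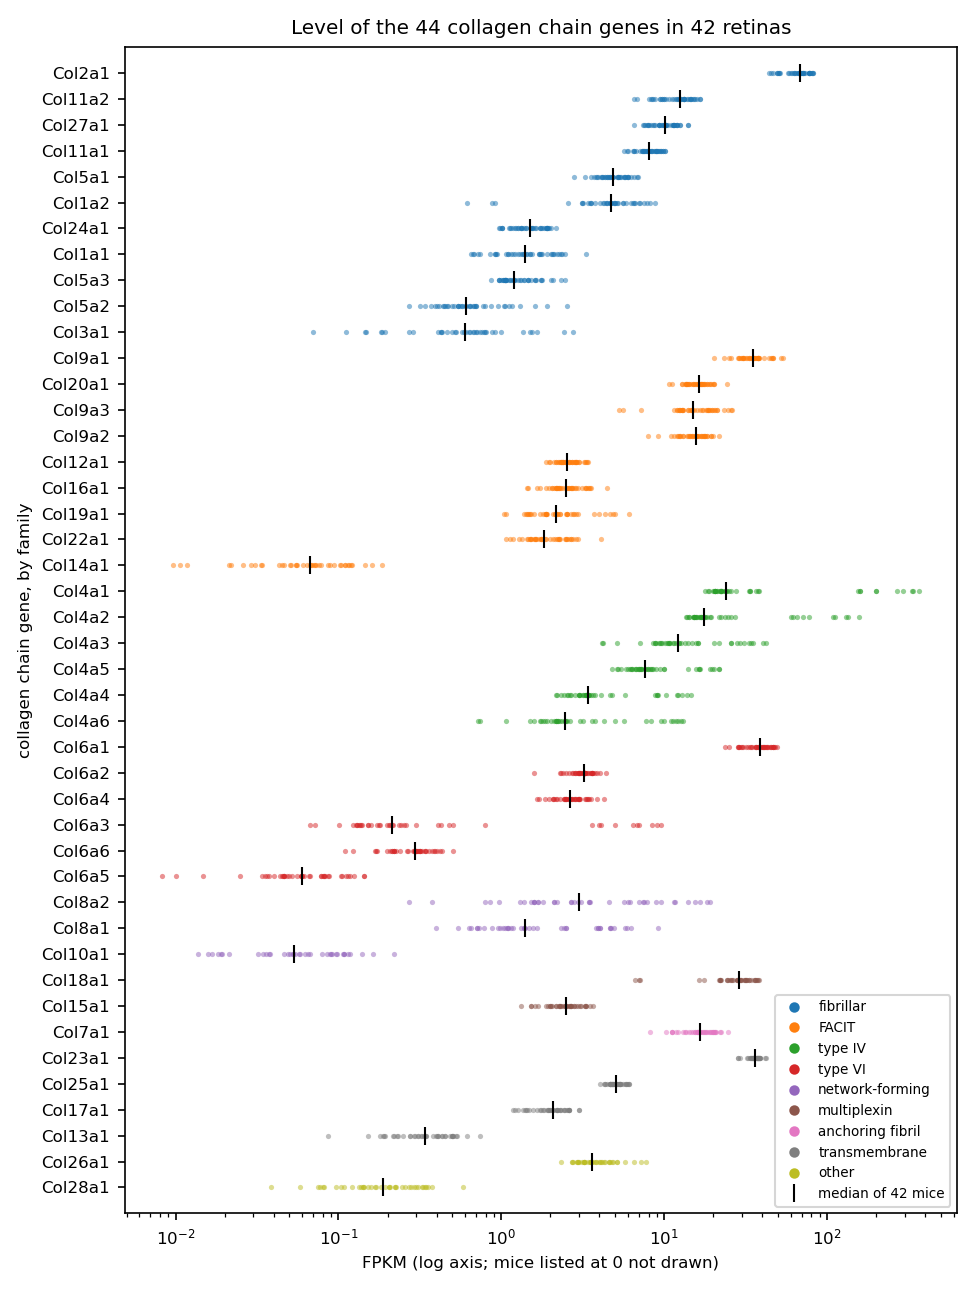
FPKM (log axis) of each of the 44 collagen chain genes, 1 point per mouse (42 mice, mice listed at 0 not drawn), coloured by family, with the median as a black bar. Col2a1, Col23a1 and Col25a1 form tight clusters, whereas the type IV chains and Col6a3 have a separate set of points to the right of the rest.

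The chains differed widely in how much they varied among mice. In 11 of 44 the coefficient of variation over all mice was under 20%, and it was smallest for the transmembrane chains Col23a1 (8.06%) and Col25a1 (10.0%), of which Col25a1 is known from amyloid plaques. It was 134% for Col4a1, 104% for Col4a2 and 168% for Col6a3, an obligatory chain of most type VI collagen. Col25a1 and Col6a3 were picked out after their values were seen.

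The spread of the type IV chains went with markers of lens fibre cells. Summed over 6 lens genes (Bfsp1, Bfsp2, Mip, Lim2, Lgsn and Gja3), 10 libraries had more than 100 FPKM, with 122 to 1124 FPKM, and the other 32 had 0.291 to 99.7 FPKM. Replicate 1 of Normoxia lay just under this limit at 99.7 FPKM, and the next library below it had 58.1 FPKM. In the 10 libraries high in lens markers Col4a1 had a lowest, median and highest level of 27.6, 233 and 367 FPKM, against 17.9, 22.3 and 154 FPKM in the other 32. Col4a2 had 18.2, 93.1 and 157 FPKM in the 10 libraries, against 13.7, 16.8 and 59.9 FPKM in the other 32. In both chains 9 of the 10 libraries lay above all of the other 32, and the exception was replicate 1 of 14-48h-JFJ with 27.6 FPKM of Col4a1. The highest of the other 32 was replicate 1 of Normoxia, and after it Col4a1 reached 38.3 FPKM and Col4a2 27.2 FPKM.

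Col6a3 followed the same libraries. It had 0.790, 6.61 and 9.56 FPKM in the 10 libraries, against 0.0665, 0.178 and 3.98 FPKM in the other 32, a ratio of medians of 37.1, and 8 of the 10 lay above all of the other 32. Replicate 1 of Normoxia again had the highest value outside the 10, and the next was 0.505 FPKM. The ratio of medians was 10.5 for Col4a1, 5.53 for Col4a2, 2.96 for Col4a3, 3.39 for Col4a4, 2.54 for Col4a5 and 5.04 for Col4a6. For comparison it was 0.871 for Col2a1 and 0.997 for Col9a1. The 100 FPKM limit and the chains described here were chosen after the values were seen, so no test is given. The part of lens tissue in these levels was not tested.

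The libraries high in lens markers were spread unevenly, with 3 of the mice breathing 14% oxygen for 6 h, 1 of 14-48h-ZH, a pair of 14-11w-ZH, 2 of 14-48h-JFJ, 1 of 14-07w-JFJ and 1 of Normoxia, but none of 07-06h-ZH. The 3 of 14-06h-ZH held 294, 339 and 367 FPKM of Col4a1. In the group comparisons described below, Col4a1 and Col4a2 passed the test in none of the 9, and the log2 fold changes ranged between -1.47 for Col4a1 in 14-48h-ZH over 14-06h-ZH and 1.13 for Col4a1 in 14-06h-ZH over Normoxia, with standard errors of 0.43 to 1.05. In bulk tissue, fewer cells of a type and less RNA per cell cannot be told apart.

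**Figure D2:**
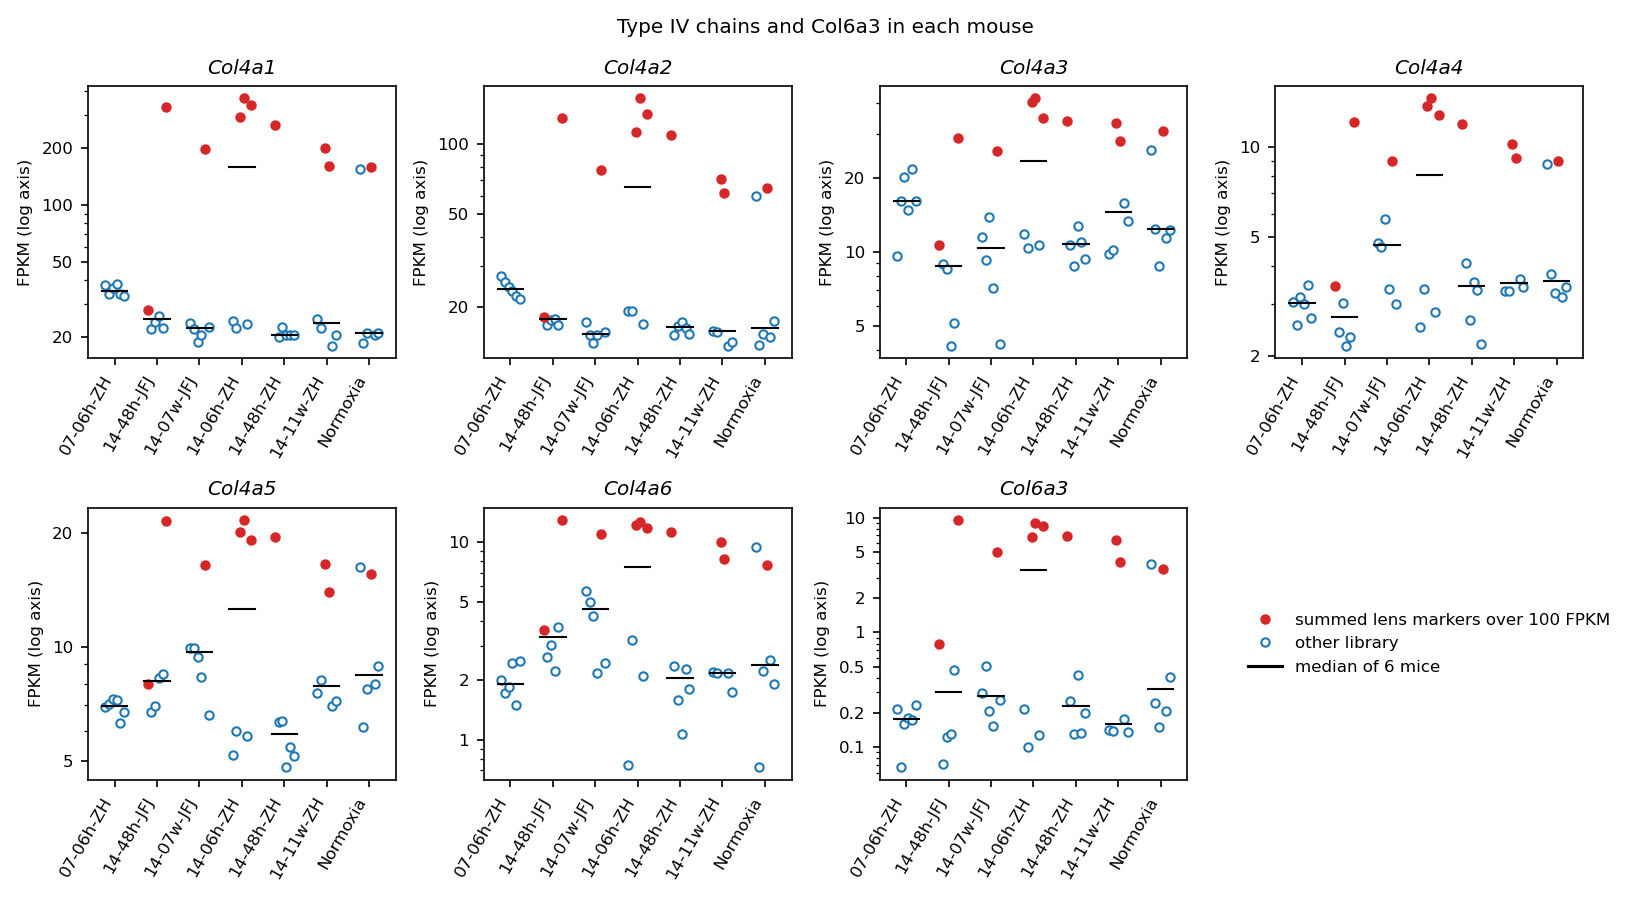
FPKM (log axis) of the 6 type IV chains and Col6a3 in each mouse by group, with the group median as a bar. Filled red points are the 10 libraries with more than 100 FPKM of summed lens markers, most of them far above the open points of their own group. The open Normoxia point at 154 FPKM of Col4a1 is replicate 1, whose summed lens markers were 99.7 FPKM.

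Groups were compared with limma on log2(FPKM + 0.1), 6 mice against 6, with Benjamini-Hochberg adjustment over all genes tested. This scale understates the change of chains with low FPKM. A chain was taken to differ where the adjusted p did not exceed 0.05. A log2 fold change of 1 or more in size on top of that is called at least 2-fold here. All 44 chains could be tested in each of the 9 comparisons. The 6 comparisons with Normoxia share the same 6 control mice.

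After 6 h at 7% oxygen, 14 of 44 chains differed from Normoxia. The 9 that rose included Col19a1, Col26a1, Col1a2 and Col8a1, and the 5 that fell included Col22a1, Col3a1 and Col5a1. Among all 16962 genes tested 18% rose and 24% fell, and at least 2-fold changes were seen in 2.87% upward and 1.33% downward, so that 9 of 44 upward lay near the background share and 5 of 44 downward below it. At least 2-fold changes were found for Col19a1, Col8a1 and Col1a2 upward and Col3a1 downward. The median log2 fold change was 0.06 over the chains and -0.03 over all genes. Of the 11 pigment cell markers used below 5 rose and 0 fell, 0 of 6 lens markers passed, and the 3 red blood cell markers summed to 73.5 to 1493 FPKM in 07-06h-ZH and 20.3 to 448 FPKM in Normoxia. The part of red blood cells in the result was not tested.

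Col19a1, a FACIT chain of basement membrane zones known from interneurons in the mouse brain, had the largest change among the chains that passed. Its level was 3.97, 4.73 and 6.05 FPKM (lowest, median and highest) in 07-06h-ZH, against 1.03, 1.68 and 2.06 FPKM in Normoxia. Every mouse of 07-06h-ZH was above every normoxic mouse. The log2 fold change was 1.59 ± 0.17 (SE, n = 6 each, limma adjusted p = 1.51e-06), and it ranged between 1.44 and 1.78 with a term for Y-linked genes, lens markers or pigment cell markers, without the libraries high in lens or low in stromal markers, or with median-of-ratios scaling.

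The gene (ENSMUSG00000026141) lies on chromosome 1 of GRCm38 between 24261890 and 24587472 on the minus strand. Its upstream sequence is shown because it had the largest change among the chains that passed the test, and the core of the site bound by hypoxia-inducible factors was looked for as ACGTG or GCGTG on either strand. The 215 bases of the RefSeq promoter window that precede the annotated gene, chr1:24587473-24587687 (GRCm38.p6, minus strand, 5′ to 3′), held 0 matches, which says only that these letters are not in this window.
Col19a1: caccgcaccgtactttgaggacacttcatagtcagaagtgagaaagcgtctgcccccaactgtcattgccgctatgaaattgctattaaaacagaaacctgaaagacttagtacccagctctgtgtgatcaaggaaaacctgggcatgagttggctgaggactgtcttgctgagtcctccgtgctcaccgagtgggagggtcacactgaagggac
RefSeq windows, 250 bases before each start, were found for 35 of 44 chains. These were 38 windows, of which 11 (28.9%) held ACGTG or GCGTG, against 38.6% of all 32851 windows of the same length.

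Col26a1, a secreted chain first found in testis and ovary, had 3.81, 6.12 and 7.71 FPKM in 07-06h-ZH, against 2.72, 3.31 and 3.54 FPKM in Normoxia. All 6 mice of 07-06h-ZH exceeded all normoxic mice, with a log2 fold change of 0.85 ± 0.14 (limma adjusted p = 0.000176). Col23a1 was likewise separate at a small distance, with 36.5, 37.3 and 42.2 FPKM in 07-06h-ZH, against 28.2, 34.8 and 35.6 FPKM in Normoxia (log2 fold change 0.19 ± 0.06, adjusted p = 0.0164). The adjusted p of Col23a1 was 0.101 with a term for Y-linked genes and 0.0855 with one for pigment cell markers. Col9a1 rose by 0.45 ± 0.13 on the log2 scale to 31.6, 44.3 and 53.5 FPKM in 07-06h-ZH, against 23.2, 31.5 and 38.1 FPKM in Normoxia, with overlapping groups (adjusted p = 0.0106, and 0.130 with the Y-linked term). Col20a1 (0.25 ± 0.08) and Col13a1 (0.60 ± 0.20), a transmembrane chain of cell adhesion sites, also rose, with adjusted p of 0.0169 and 0.0246. With a term for the lens markers neither of these passed the test (adjusted p = 0.0875 for Col20a1 and 0.0513 for Col13a1).

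The chains that fell were FACIT and fibrillar. Col22a1, a chain of tissue junctions, had 1.47, 1.76 and 1.98 FPKM in 07-06h-ZH, against 2.23, 2.59 and 4.09 FPKM in Normoxia, with every mouse of 07-06h-ZH below every normoxic mouse (log2 fold change -0.63 ± 0.15, adjusted p = 0.00256). Col12a1, a FACIT chain of type I fibrils, showed the same separation, with 1.89, 2.07 and 2.34 FPKM in 07-06h-ZH, against 2.40, 2.60 and 2.88 FPKM in Normoxia (-0.31 ± 0.10, adjusted p = 0.0231, and 0.0901 with the Y-linked term). Col5a1, which sets fibril diameter, fell by 0.37 ± 0.11 (adjusted p = 0.0128, and 0.0826 with a term for Y-linked genes). Col3a1 was near 0 in this group, with 0, 0.0907 and 0.500 FPKM and 2 mice listed at 0, against 0.182, 0.423 and 0.800 FPKM in Normoxia (-1.33 ± 0.42, adjusted p = 0.018). With a term for the lens markers the adjusted p was 0.122 for Col3a1 and 0.0545 for Col12a1. Leaving out replicate 3 of Normoxia or replicate 5 of 07-06h-ZH took Col12a1 to an adjusted p of up to 0.0537, and leaving out replicate 5 of Normoxia or replicate 3 or 6 of 07-06h-ZH took Col13a1 to up to 0.0567.

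For the pair of main type IV chains the result depended on which libraries were used. With all 12 mice Col4a1 had a log2 fold change of -0.18 ± 0.62 (adjusted p = 0.847) and Col4a2 of -0.03 ± 0.43 (adjusted p = 0.969). Replicates 1 and 4 of Normoxia had 154 and 160 FPKM of Col4a1, and of these only replicate 4 was over the limit of 100 FPKM for lens markers. Without replicate 4 alone, Col4a1 had a log2 fold change of 0.22 ± 0.53 and Col4a2 of 0.25 ± 0.35. These are a description without a p, because replicate 4 has the highest level of both chains in Normoxia. A lower limit of 80 FPKM, which also leaves out replicate 1, was chosen after the result at 100 FPKM was seen. Without both libraries Col4a1 had 33.0, 35.1 and 38.3 FPKM in the 6 mice of 07-06h-ZH, against 18.6, 20.3, 20.9 and 21.0 FPKM in the other 4 mice of Normoxia (log2 fold change 0.81). Col4a2 had 21.7, 24 and 27.2 FPKM in 07-06h-ZH, against 13.8, 15.0, 15.4 and 17.4 FPKM in these 4 mice of Normoxia (0.65). In both chains the 6 mice of 07-06h-ZH were above these 4 normoxic mice without overlap. Because this limit takes out the 2 normoxic libraries with the highest Col4a1, these values are a description and no p is given. At this lower limit Col3a1, Col5a1, Col12a1, Col13a1 and Col20a1 no longer passed in this comparison, with adjusted p of 0.0575 to 0.105.

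With all 12 mice and a term for the lens markers, Col4a1 had a log2 fold change of 0.77 ± 0.29 and did not pass the test (adjusted p = 0.0658), and Col4a2 had 0.62 ± 0.19 (adjusted p = 0.0236). This term and both limits were added after the data were seen. In the other 5 comparisons with Normoxia both limits take out the same normoxic libraries, so no p is given for Col4a1 and Col4a2 at either limit. In 14-48h-JFJ over 14-48h-ZH without the libraries high in lens markers, Col4a1 had a log2 fold change of 0.18. The median of all genes in this comparison, with all mice, was 0.11. Because the libraries left out had the highest Col4a1 of their groups, the value is a description and no p is given.

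Col4a1 (ENSMUSG00000031502, chr8:11198423-11312826, minus strand) and Col4a2 (ENSMUSG00000031503, chr8:11312805-11449287, plus strand) stand head to head in GRCm38 and share 22 bases at their starts, so reads there could have been counted for either gene if strand was not used, which the sources used here do not give. The 29 bases around a match to GCGTG before each start are shown because the levels of both chains moved together across libraries, with the match in capitals (RefSeq windows, GRCm38.p6). They lie at chr8:11312981-11313009 on the minus strand, 171 bases before the start of Col4a1, and at chr8:11312688-11312716 on the plus strand, 105 bases before that of Col4a2.
Col4a1: ctctcggccccgGCGTGccttgctggtgc
Col4a2: cggagggcccggGCGTGagccctgctcac

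Col1a2, the second chain of type I collagen, was higher in 07-06h-ZH with 4.01, 5.24 and 7.02 FPKM, against 0.616, 3.32 and 3.77 FPKM in Normoxia. The groups did not overlap (log2 fold change 1.02 ± 0.37, adjusted p = 0.0418). The lowest normoxic value belonged to replicate 2. Without it the log2 fold change was 0.65, given as a description without a p because this mouse has the lowest Col1a2. Leaving out replicate 5 or 6 of Normoxia or any mouse of 07-06h-ZH gave adjusted p of 0.0504 to 0.0812. The adjusted p of Col1a2 was 0.112 with a term for pigment cell markers and 0.118 with one for Y-linked genes. Its partner chain Col1a1 had 0.654, 1.36 and 2.04 FPKM in 07-06h-ZH, against 1.22, 1.63 and 2.34 FPKM in Normoxia (-0.40 ± 0.24, adjusted p = 0.194).

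That normoxic mouse was 1 of 3 that stood apart in several chains. Over 9 stromal fibroblast markers (Dcn, Lum, Ogn, Fbln1, Mgp, Pdgfra, Dpt, Mfap5 and Clec3b) the summed level was 12.1 to 13.5 FPKM in 1 mouse each of 14-06h-ZH (replicate 1), 14-48h-ZH (replicate 4) and Normoxia (replicate 2), and 31.1 to 103 FPKM in the other 39 libraries. In these 3 mice Col1a2 was 0.616 to 0.912 FPKM, against 2.57 to 8.78 FPKM in the other 39. Col18a1 was 6.64 to 7.06 FPKM in the 3 mice, against 16.3 to 37.9 FPKM in the other 39. Col23a1, Col4a6, Col9a1 and Col9a3 were also lower in all 3 than in any other mouse. The limit of 20 FPKM and these chains were chosen after the values were seen, and the part of stromal tissue in them was not tested.

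With all mice, the log2 fold change of Col1a2 over Normoxia was 0.89 in 14-06h-ZH (limma adjusted p = 0.287), 0.50 in 14-48h-ZH (adjusted p = 0.534) and 1.25 in 14-48h-JFJ (adjusted p = 0.0982), none past the test. Without the 3 libraries it was 0.96, 0.51 and 0.88 in the same order, and 0.34 in 14-11w-ZH and 0.53 in 14-07w-JFJ. Since Col1a2 is lowest in these very libraries, the values without them are a description and no p is given. Col1a2 passed the test as higher in 07-06h-ZH than in Normoxia, and its upstream matches are shown for this reason. Both stretches with the letters ACGTG on the opposite strand have the match in capitals (RefSeq, GRCm38.p6, plus strand). They lie at chr6:4505475-4505503 and chr6:4505519-4505547, 131 and 87 bases before the RefSeq start. The gene positions used here begin Col1a2 further upstream, at base 4504814, so that both stretches lie inside the gene as annotated there.
Col1a2 distal: ctcaaaagtgtcCACGTcctcaaaaagaa
Col1a2 proximal: aagccccgtagcCACGTccctcccccctc

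**Figure D3:**
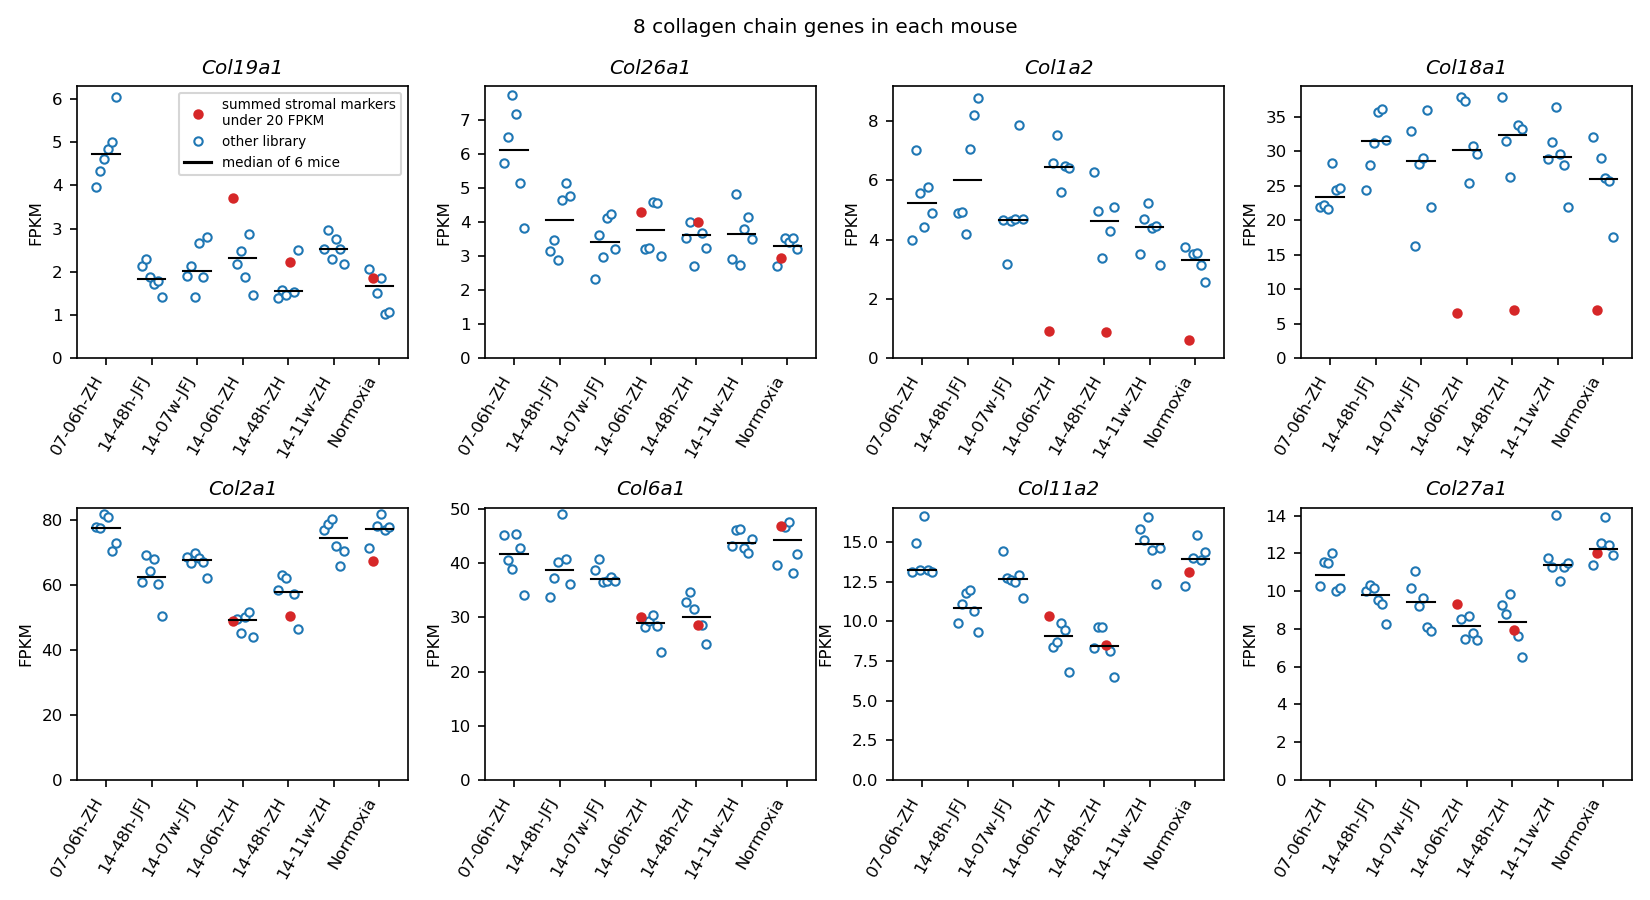
FPKM (linear axis from 0) of 8 chains in each mouse by group, with the group median as a bar and the 3 libraries low in stromal markers in red. Col19a1 and Col26a1 are highest in 07-06h-ZH, Col1a2 and Col18a1 are lowest in the red libraries, and Col2a1, Col6a1, Col11a2 and Col27a1 are lower in 14-06h-ZH and 14-48h-ZH than in Normoxia.

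After 6 h at 14% oxygen, 17 of 44 chains differed from Normoxia, 15 of them lower. Among all 17108 genes tested, 9.54% rose and 24.8% fell, so that the downward count lay above the background share. No chain changed at least 2-fold, as 0.392% of all genes did upward and 0.585% downward. With a term for Y-linked genes 11 chains differed in this comparison, 8 in 14-48h-ZH over Normoxia and 6 in 07-06h-ZH over Normoxia, against 24.2%, 25.8% and 31.0% of all genes in the same order. The median log2 fold change was -0.06 over the chains and -0.05 over all genes. Genes that rose were 27.8% of all genes that differed, and 47.0% with median-of-ratios scaling, under which 13 chains fell and 2 rose. Of 5 markers of corneal and conjunctival epithelium 4 rose here and 3 in 14-48h-ZH over Normoxia, and their part was not tested. In 10 chains the 6 mice of 14-06h-ZH did not overlap with the 6 normoxic mice, and all 10 were lower. Among all genes tested 13.8% were lower without overlap.

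By family, 7 of 11 fibrillar, 3 of 6 type VI and 3 of 9 FACIT chains were lower in 14-06h-ZH, with Col7a1 and Col17a1, and 2 FACIT chains were higher. Col9a1 (-0.02 ± 0.12, adjusted p = 0.924) and Col6a3 (0.88 ± 1.35, adjusted p = 0.677) did not pass. Col2a1 had 43.8, 49.2 and 51.5 FPKM in 14-06h-ZH, against 67.4, 77.3 and 81.9 FPKM in Normoxia. The highest mouse of 14-06h-ZH was well below the lowest normoxic mouse (log2 fold change -0.65 ± 0.05, limma adjusted p = 2.06e-07). Col6a1 had 23.6, 28.9 and 30.5 FPKM in 14-06h-ZH, against 38.3, 44.3 and 47.6 FPKM in Normoxia (-0.61 ± 0.07, adjusted p = 5.7e-06), again without overlap. Col11a1 and Col11a2, which co-assemble with type II fibrils, fell by 0.43 ± 0.07 and 0.64 ± 0.09 (adjusted p = 0.000237 and 4.4e-05). Col27a1, a fibrillar chain of cartilage, fell by 0.59 ± 0.07 (adjusted p = 7.86e-06), and Col7a1 had 10.3, 12.4 and 16.3 FPKM in 14-06h-ZH, against 16.6, 20.04 and 22.3 FPKM in Normoxia (-0.64 ± 0.11, adjusted p = 0.000327). Col5a1 (-0.53 ± 0.10) and Col22a1 (-0.77 ± 0.15) were lower with adjusted p of 0.000532 and 0.000748.

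Col1a1 fell by 0.59 ± 0.18 to 0.910, 1.02 and 1.42 FPKM in 14-06h-ZH, against 1.22, 1.63 and 2.34 FPKM in Normoxia (adjusted p = 0.0157), with overlap. It did not pass the test without the libraries high in lens markers (adjusted p = 0.130) or with a term for Y-linked genes. The summed level of the 11 fibrillar chains, in which Col2a1 takes the largest share, was 80.2 to 90.9 FPKM in 14-06h-ZH and 111 to 138 FPKM in Normoxia. The 2 chains that rose were Col19a1 (0.59 ± 0.22, adjusted p = 0.0432) and Col14a1 (0.59 ± 0.18, adjusted p = 0.0196), a FACIT chain at 0.0689 to 0.119 FPKM in 14-06h-ZH and 0.0106 to 0.0732 FPKM in Normoxia. These were named after their values were seen. Col19a1 lost its call without trend and robust options, without the filter, with a pigment or lens term, without the libraries low in stromal markers or when replicate 3, 5 or 6 of Normoxia or replicate 1, 2, 3 or 5 of 14-06h-ZH was left out, and Col14a1 with the Y-linked term or without the libraries high in lens markers (adjusted p = 0.0706 and 0.106). Col18a1 had a log2 fold change of 0.25 ± 0.50 (adjusted p = 0.759).

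After 48 h at 14% oxygen and normal pressure, 14 chains were lower than in Normoxia and 0 were higher. Among all 17041 genes tested, 26.7% fell and 9.48% rose, a background share somewhat below that of the chains that fell. The median log2 fold change was -0.29 over the chains and -0.08 over all genes, and no chain changed at least 2-fold, as 0.217% of all genes did upward and 0.604% downward. With median-of-ratios scaling 12 chains fell, as did 17.0% of all genes, while 17.0% rose. Genes that rose were then 50% of those that differed, in place of 26.2%. Between 14-48h-ZH and Normoxia, 9 chains were lower without overlap, as were 15% of all genes tested.

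Col11a2 had 6.47, 8.41 and 9.66 FPKM in 14-48h-ZH, against 12.2, 13.9 and 15.5 FPKM in Normoxia (log2 fold change -0.71 ± 0.09, limma adjusted p = 1e-05). Col7a1 had 8.16, 12.0 and 14.5 FPKM in 14-48h-ZH, against 16.6, 20.04 and 22.3 FPKM in Normoxia (-0.75 ± 0.12, adjusted p = 0.000187). Both were separate in all mice. Col2a1 fell by 0.43 ± 0.07, Col6a1 by 0.52 ± 0.08, Col27a1 by 0.57 ± 0.09 and Col11a1 by 0.43 ± 0.08, with adjusted p between 6.92e-05 and 0.000777 and no overlap for any of them. Col6a4, a type VI chain of the alpha-4 group, fell by 0.73 ± 0.12 (adjusted p = 0.000147) and Col20a1 by 0.37 ± 0.07 (adjusted p = 0.000697).

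Col1a1 was lower at 48 h, with 0.723, 0.957 and 1.15 FPKM in 14-48h-ZH, against 1.22, 1.63 and 2.34 FPKM in Normoxia and no overlap (-0.78 ± 0.18, adjusted p = 0.00279). It did not pass with a term for Y-linked genes. Col18a1 had a log2 fold change of 0.28 ± 0.49 (adjusted p = 0.719). When 14-48h-ZH was set against 14-06h-ZH, which shares its sample series, limma found 0 of 44 chains to differ, with 4 at an unadjusted p under 0.05. edgeR on the recovered reads, without replicate 6 of 14-06h-ZH, also found 0. Among all 17172 genes tested 0.74% rose and 0.932% fell, with 0.00582% upward and 0.0582% downward at least 2-fold, and genes that rose were 44.3% of those that differed (55.7% with median-of-ratios scaling). Col2a1 had the smallest adjusted p (0.139), with a log2 fold change of 0.22 ± 0.07, and Col1a1 had -0.19 ± 0.15.

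After 11 weeks at 14% oxygen, 1 chain of 44 differed from Normoxia in the pair of groups that share a sample series. Among all 17092 genes tested, 2.02% rose and 1.94% fell, and genes that rose were 51.0% of those that differed (40.4% with median-of-ratios scaling). This chain was Col19a1, with 2.19, 2.53 and 2.96 FPKM in 14-11w-ZH, against 1.03, 1.68 and 2.06 FPKM in Normoxia. Every mouse of 14-11w-ZH was above every normoxic mouse (log2 fold change 0.71 ± 0.16, limma adjusted p = 0.0288). The adjusted p was 0.0504 to 0.0688 without replicate 5 or 6 of Normoxia or replicate 1, 2, 4 or 5 of 14-11w-ZH, and Col19a1 passed neither without the libraries high in lens markers (adjusted p = 0.106) nor with edgeR on recovered reads. That edgeR fit was on fewer mice, without replicates 3 and 5 of Normoxia and replicate 1 of 14-11w-ZH. Col2a1 had 65.8, 74.4 and 80.3 FPKM and Col6a1 41.9, 43.9 and 46.3 FPKM in 14-11w-ZH, ranges that overlap with those of Normoxia given above.

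Col18a1 had a log2 fold change of 0.49 ± 0.34 and Col1a1 of 0.09 ± 0.17 in this comparison (adjusted p = 0.489 and 0.841). The level of Col19a1 in 14-48h-ZH was 1.39, 1.56 and 2.52 FPKM, a range that overlaps with the normoxic one.

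After 48 h on the Jungfraujoch, 5 chains differed from Normoxia, of which 4 were lower and 1 higher. Among all 17100 genes tested 2.65% fell and 2.67% rose, with 0.181% rising and 0.0643% falling at least 2-fold, and genes that rose were 50.2% of those that differed (35.1% with median-of-ratios scaling). Col22a1 had 1.07, 1.43 and 1.7 FPKM in 14-48h-JFJ, against 2.23, 2.59 and 4.09 FPKM in Normoxia, without overlap (log2 fold change -0.89 ± 0.15, limma adjusted p = 0.00398). Col27a1 (-0.36 ± 0.07) and Col11a2 (-0.36 ± 0.07) were also separate (adjusted p = 0.00559 and 0.00998). Col2a1 had 50.4, 62.5 and 69.2 FPKM in 14-48h-JFJ, against 67.4, 77.3 and 81.9 FPKM in Normoxia, with a small overlap (-0.29 ± 0.07, adjusted p = 0.0253). With a term for Y-linked genes 0 of 44 chains and 1.23% of all genes passed, against 5.33% of all genes without it. Of 5 markers of corneal and conjunctival epithelium 2 rose at least 2-fold, 3 of 10 of smooth muscle and pericytes and 3 of 9 of endothelium rose, and the median log2 fold change was 1.44 over 11 pigment cell markers, 0 of which passed, and 0.93 over 8 stromal markers, of which 1 rose. Beyond a term for pigment cell markers, given below, their part was not tested. Without the libraries high in lens markers 2 passed, and Col11a2 (adjusted p = 0.0892) and Col2a1 (0.116) did not.

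Col3a1 rose at least 2-fold, with 0.630, 1.21 and 2.74 FPKM in 14-48h-JFJ, against 0.182, 0.423 and 0.800 FPKM in Normoxia (log2 fold change 1.42 ± 0.37, adjusted p = 0.0385). The groups overlapped, and the adjusted p was 0.0848 without the libraries high in lens markers, 0.069 without those low in stromal markers, 0.131 with a pigment term and 0.143 with edgeR. It also missed the threshold with a pseudocount of 1, the replicate block or no trend and robust options. The edgeR fit was on fewer mice, without replicates 3 and 5 of Normoxia and replicate 4 of 14-48h-JFJ. Leaving out replicate 2, 3, 4 or 5 of Normoxia or replicate 1, 2, 3 or 5 of 14-48h-JFJ, gave an adjusted p of 0.0504 to 0.0886. For Col2a1, leaving out replicate 3, 4, 5 or 6 of Normoxia, or replicate 1 or 5 of 14-48h-JFJ, gave 0.0519 to 0.0603. The median log2 fold change was 0.02 over the chains and 0.02 over all genes, and Col18a1 and Col1a1 had 0.58 ± 0.34 and 0.03 ± 0.29 (adjusted p = 0.351 and 0.971).

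After 7 weeks on the Jungfraujoch, Col27a1 was the 1 chain that differed from Normoxia. Among all 16984 genes tested 0.577% fell and 1.47% rose, and genes that rose were 71.8% of those that differed (50% with median-of-ratios scaling, under which 3 chains fell). It had 7.91, 9.42 and 11.1 FPKM in 14-07w-JFJ, against 11.4, 12.2 and 13.9 FPKM in Normoxia, without overlap (log2 fold change -0.41 ± 0.08, limma adjusted p = 0.0202). The adjusted p was 0.055 without replicate 4 of Normoxia, 0.176 with a term for Y-linked genes and 0.0974 without the libraries high in lens markers. Col2a1, by contrast, had 62.2, 67.6 and 69.7 FPKM in 14-07w-JFJ and overlapped with Normoxia. Col18a1 (0.36 ± 0.37) and Col1a1 (-0.04 ± 0.26) had adjusted p of 0.674 and 0.959.

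**Figure D4:**
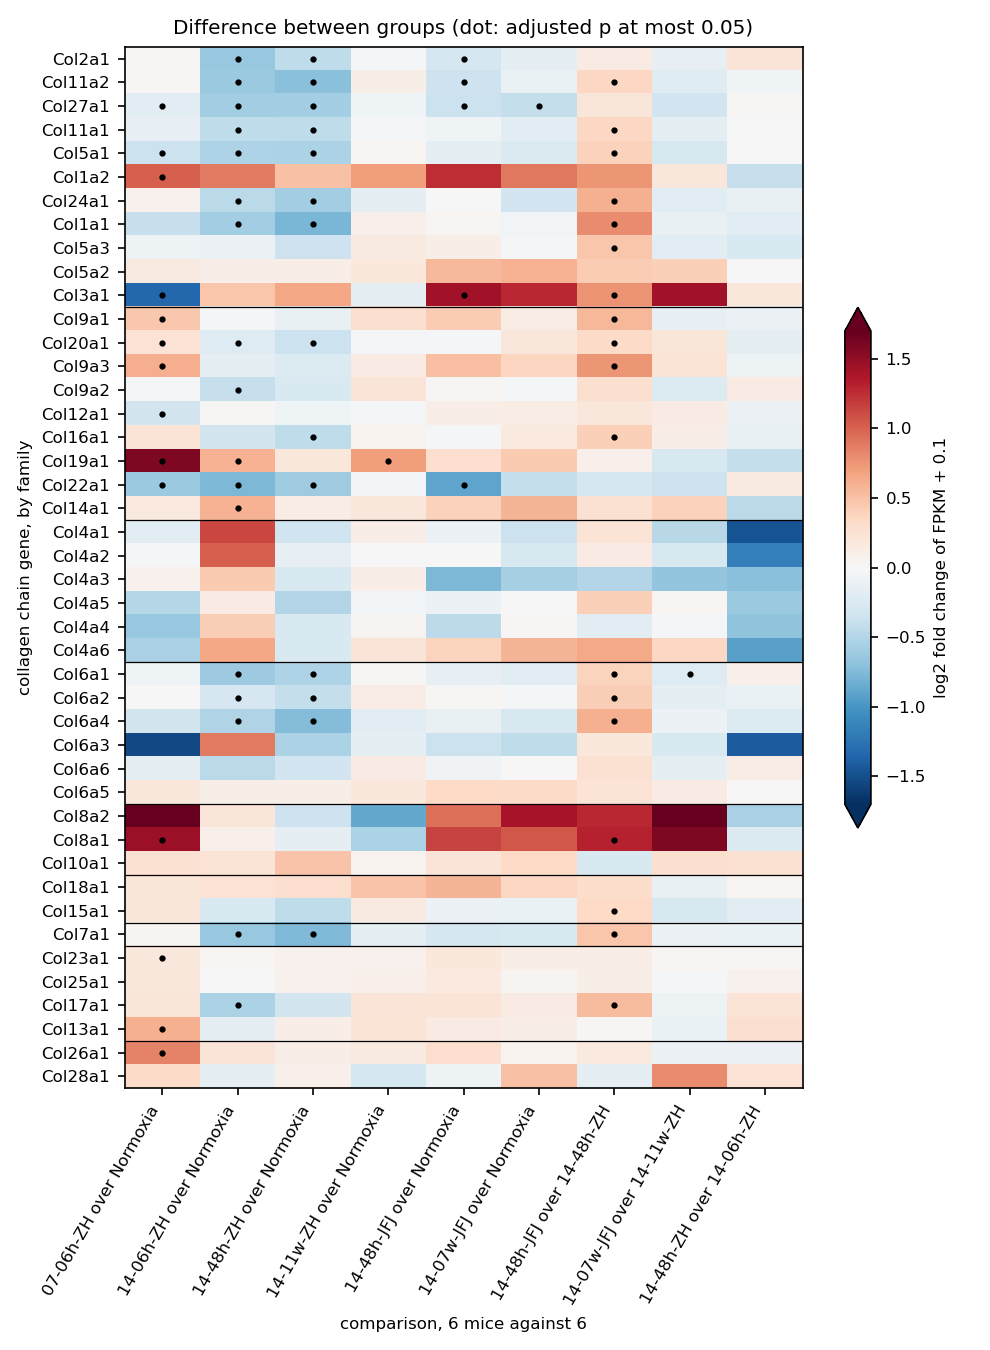
Log2 fold change of each of the 44 chains (rows, by family) in the 9 comparisons (columns), on the log2(FPKM + 0.1) scale, red for higher and blue for lower in the group named first. Dots mark an adjusted p of at most 0.05, with 17 in the column of 14-06h-ZH, 14 in that of 14-48h-ZH and 18 in that of 14-48h-JFJ over 14-48h-ZH.

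The JFJ groups, at low pressure, were set against ZH groups at normal pressure and about the same oxygen supply, first at the same time of 48 h. JFJ and ZH groups also differ in sample series, light cycle, stated age at the start and isolation without a microscope. The JFJ mice had also been transported to the station. Pressure cannot be told apart from these. At 48 h, 18 of 44 chains rose in 14-48h-JFJ over 14-48h-ZH and 0 fell. Among all 17099 genes tested, 30.9% rose and 8.66% fell, 1.27% rose and 0.0409% fell at least 2-fold, and the median of all genes was 0.11 on the log2 scale. The median of the chains was 0.34. The 6 rod markers summed to 14512 to 17172 FPKM in 14-48h-JFJ and 18067 to 20774 FPKM in 14-48h-ZH, without overlap, where 2 of the 6 (Pde6a and Gnat1) fell and 1 (Nrl) rose. In the same comparison 9 of 11 pigment cell, 3 of 3 red blood cell and 5 of 9 smooth muscle and pericyte markers rose, and 4 of 5 Muller glia markers fell. Beyond the term for pigment cell markers given below, the part of these in the chains' change was not tested. With median-of-ratios scaling, which brought the median of all genes to 0.02, 12 chains rose and their median was 0.24. Under it 18.3% of all genes rose and 18.1% fell. Genes that rose were 50.3% of those that differed, in place of 78.1%.

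The mice of 14-48h-ZH are the same as in the comparison with Normoxia above, so the 2 results are not independent. The chains that rose came from the fibrillar, FACIT, type VI, network-forming, anchoring fibril, multiplexin and transmembrane families. Col6a1 had 33.7, 38.8 and 49.0 FPKM in 14-48h-JFJ, against 25.1, 30.1 and 34.8 FPKM in 14-48h-ZH, with some overlap (log2 fold change 0.38 ± 0.09, limma adjusted p = 0.00371). Col9a1 had 34.8, 41.9 and 52.2 FPKM in 14-48h-JFJ, against 20.2, 30.0 and 33.0 FPKM in 14-48h-ZH, without overlap (0.56 ± 0.13, adjusted p = 0.00474). Col24a1, a fibrillar chain of bone and cornea, and Col6a4 each rose by 0.60 (SE 0.12 and 0.13, adjusted p = 0.000792 and 0.00115), and Col17a1, a transmembrane chain of epithelial attachment, by 0.54 ± 0.13 (adjusted p = 0.00346). These 3 did not overlap between the groups either, and 6 of the 44 chains in all were higher without overlap, against 15.6% of all genes tested. Col20a1, Col11a1 and Col11a2 rose by 0.33 to 0.36 (adjusted p = 0.00329 to 0.00488). Relative to the shift of all genes the gain of these is smaller by 0.11.

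Col8a1, which builds lattices in endothelial and corneal membranes, had 1.38, 3.18 and 9.09 FPKM in 14-48h-JFJ, against 0.784, 1.07 and 1.64 FPKM in 14-48h-ZH (log2 fold change 1.31 ± 0.41, adjusted p = 0.0251), and was the only chain to change at least 2-fold. Without replicate 5 of 14-48h-ZH or replicate 2 or 3 of 14-48h-JFJ the adjusted p was 0.0519 to 0.0564. With a term for pigment cell markers the log2 fold change of Col8a1 was -0.24 ± 0.35 (adjusted p = 0.696), and 8 of the 44 chains differed in place of 18, as 17.6% of all genes did in place of 39.6%. Col1a1 was higher at 0.666, 1.74 and 3.33 FPKM in 14-48h-JFJ, against 0.723, 0.957 and 1.15 FPKM in 14-48h-ZH (0.81 ± 0.27, adjusted p = 0.028), with overlap. Its adjusted p was 0.0516 to 0.0642 without replicate 4, 5 or 6 of 14-48h-ZH or replicate 1, 3 or 5 of 14-48h-JFJ, and 0.693 with the pigment term.

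In the chronic exposures the picture was different, with 1 chain lower in 14-07w-JFJ than in 14-11w-ZH and 0 higher. Among all 17037 genes tested 0.47% fell and 1.07% rose, and genes that rose were 69.6% of those that differed (54.0% with median-of-ratios scaling). Col6a1 had 36.5, 37.1 and 40.8 FPKM in 14-07w-JFJ, against 41.9, 43.9 and 46.3 FPKM in 14-11w-ZH, without overlap (log2 fold change -0.22 ± 0.04, limma adjusted p = 0.0179). It was 0.0509 without replicate 2 of 14-11w-ZH and 0.0738 without the libraries high in lens markers. All 6 mice of 14-11w-ZH but 3 of 14-07w-JFJ carry Y-linked transcripts, and with a term for them it was 0.0667, with one for pigment cell markers 0.0792 and with all 7 groups in 1 fit 0.0905. These groups differ in duration, age at sampling and light cycle as well as pressure. The difference of the JFJ over ZH change at 48 h and in chronic exposure was tested as an interaction. In it 13 of 44 chains passed, all with a more positive change at 48 h. Of all 16774 genes tested 26.5% passed in either direction, a share near that of the chains. How many of these genes went each way was not counted. In 14-48h-JFJ over 14-48h-ZH 30.9% of all genes rose and 8.66% fell, so the shared direction cannot be set apart from that of genes at large. Among the chains that passed, the largest differences were 0.77 for Col24a1, 0.70 for Col9a1 and 0.70 for Col6a4, and Col2a1 had the smallest at 0.28.

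The type VIII chains followed the markers of pigment cells. The summed level of 11 markers (Rpe65, Lrat, Rdh5, Best1, Stra6, Ttr, Mlana, Pmel, Tyr, Tyrp1 and Dct) was 192 to 548 FPKM in 07-06h-ZH, 92.1 to 793 FPKM in 14-48h-JFJ, 103 to 813 FPKM in 14-07w-JFJ, 42.1 to 436 FPKM in 14-06h-ZH, 62.3 to 90.2 FPKM in 14-48h-ZH, 53.8 to 150 FPKM in 14-11w-ZH and 58.0 to 502 FPKM in Normoxia. Deviations of each mouse from its group mean were correlated over 42 mice, for 44 chains and the pigment and stromal markers, 88 relations in all. Col8a2, the partner of Col8a1 in the lattice, had a Pearson r of 0.91 and a Spearman rho of 0.88 with the pigment markers, and Col8a1 had an r of 0.88 and a rho of 0.87 (permutation p = 1e-05 for each, the smallest that 100000 permutations can give, adjusted p = 0.00044). Both were positive in 7 of 7 groups, and r was 0.90 for Col8a2 and 0.87 for Col8a1 without the 2 mice farthest from the median. Of the other 42 chains, 5 had an adjusted p of at most 0.05 by Pearson's r, which lay between 0.47 for Col18a1 (rho 0.36, adjusted p = 0.118) and 0.60 for Col9a3 (rho 0.57, adjusted p = 0.0044). The 42 mice include the 3 libraries low in stromal markers, in which Col18a1 and Col9a3 were lower than in any other mouse. Within single groups r ranged between -0.67 and 0.89 for Col18a1 and between 0.19 and 0.87 for Col9a3.

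In 07-06h-ZH Col8a1 had 1.56, 4.28 and 6.24 FPKM, against 0.394, 1.12 and 3.79 FPKM in Normoxia, with overlap (log2 fold change 1.45 ± 0.50, adjusted p = 0.0343). With a term for pigment cell markers it was 0.75 ± 0.24 (adjusted p = 0.0212), and with a term for Y-linked genes 0.87 (adjusted p = 0.270). Without the libraries high in lens markers its adjusted p was 0.0644. Leaving out replicate 2, 3, 4 or 6 of Normoxia or replicate 3, 4, 5 or 6 of 07-06h-ZH gave adjusted p of 0.0529 to 0.0726. Col8a2 had 3.46, 9.24 and 16.6 FPKM in 07-06h-ZH, against 0.373, 2.81 and 7.47 FPKM in Normoxia (log2 fold change 1.7 ± 0.66, adjusted p = 0.0602), and was named after its values were seen. In 14-07w-JFJ it had 1.68, 9.72 and 15.5 FPKM, against 0.272, 1.45 and 3.08 FPKM in 14-11w-ZH (2.27, adjusted p = 0.136). Beyond the term above, the part of pigment cells in the levels of these chains was not tested.

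**Figure D5:**
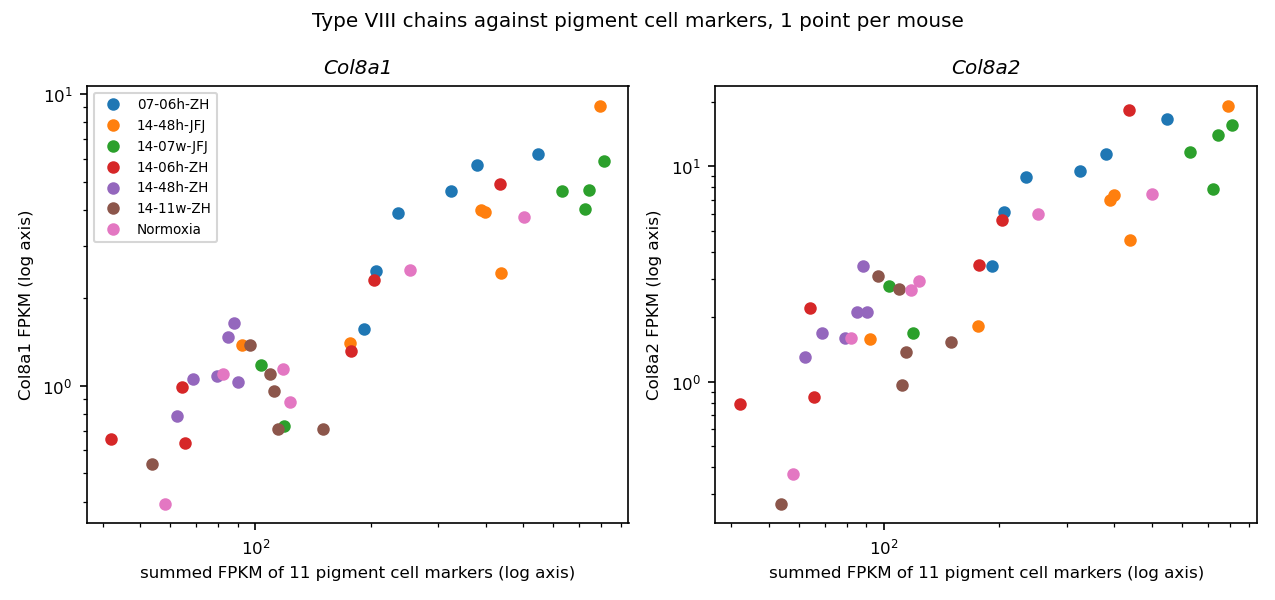
FPKM of Col8a1 (left) and Col8a2 (right) against the summed FPKM of 11 pigment cell markers, both on log axes, 1 point per mouse, coloured by group. Points rise together across the whole range, and mice of 07-06h-ZH, 14-48h-JFJ and 14-07w-JFJ make up most of the upper right.

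With the stromal markers, over the 39 mice without the 3 low libraries, 9 chains had a positive relation that passed by both measures. The strongest were Col16a1, a FACIT chain of connective tissue, with r of 0.65 and rho of 0.60, Col3a1 with r of 0.62 and rho of 0.55, and Col4a6 with r of 0.61 and rho of 0.65 (permutation test, adjusted p = 0.00176 to 0.0129). Without the 2 mice farthest from the median r was 0.65, 0.57 and 0.63 in the same order. The other chains that passed were Col4a3, Col4a4, Col4a5, Col6a3, Col8a1 and Col8a2. Like Col4a6, the first 4 of these were higher in the libraries high in lens markers, and the type VIII chains followed the pigment markers. The libraries high in lens markers were kept here, and the part of lens tissue in these relations was not tested. No chain had a negative relation that passed with either marker set. For Col1a2 r was 0.17 in these mice.

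Genes that act on collagen were examined in lists of enzymes and chaperones, basement membrane partners and receptors. The lists were taken whole and not by how their genes moved. Of 30 enzymes and chaperones tested, 6 rose and 2 fell in 07-06h-ZH over Normoxia, against 18% and 24% of all genes, with a median log2 fold change of 0.08 against -0.03 over all genes. P4hb, the beta subunit of prolyl 4-hydroxylase, averaged 187 FPKM in 07-06h-ZH and 126 FPKM in Normoxia (log2 fold change 0.56 ± 0.04, limma adjusted p = 2e-08), and P4ha2, a catalytic subunit, rose by 0.66 ± 0.09 (adjusted p = 1.91e-05). Colgalt1, which adds galactose to hydroxylysine, fell by 0.61 ± 0.08 (adjusted p = 9.59e-06). Of 17 basement membrane partners 0 rose and 3 fell, among them the type IV crosslinking enzyme Pxdn (-0.75 ± 0.16, adjusted p = 0.00147), and of 9 receptors 2 rose and 1 fell, with Ddr1, a collagen-binding kinase, up by 0.24 ± 0.05 (adjusted p = 0.000887).

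In 14-06h-ZH over Normoxia 4 of 32 enzymes and chaperones rose and 3 fell, against 9.54% and 24.8% of all genes, and in 14-48h-ZH over Normoxia 2 rose and 6 fell, against 9.48% and 26.7%. With median-of-ratios scaling 7 rose and 3 fell in 14-06h-ZH, and 4 rose and 4 fell in 14-48h-ZH. P4hb rose by 0.32 ± 0.04 and 0.28 ± 0.03, and P3h3, a prolyl 3-hydroxylase family member, was lower with -0.51 ± 0.08 and -0.67 ± 0.07 (adjusted p = 0.000143 and 3.63e-06). None of the 3 lists had a gene that passed with limma in 14-11w-ZH over Normoxia. Loxl4, a lysyl oxidase of low level, rose in both JFJ groups over Normoxia, by 1.11 ± 0.22 at 48 h and 1.08 ± 0.25 at 7 weeks (adjusted p = 0.0085 and 0.0349), and was lower in 14-48h-ZH than in 14-06h-ZH (-0.83 ± 0.20, adjusted p = 0.048). In 14-07w-JFJ over 14-11w-ZH 0 of 31 enzymes and chaperones passed, as 1.07% of all genes rose and 0.47% fell. At least 2-fold rises were 0 of 31 in 14-48h-JFJ over 14-48h-ZH (1.27% of all genes) and 1 of 32 in 14-06h-ZH over Normoxia (0.392%). Of 5 markers of corneal and conjunctival epithelium 2 rose in each JFJ group over Normoxia, and their part was not tested. In 14-48h-JFJ over 14-48h-ZH 13 of 31 enzymes and chaperones rose and 2 fell (median 0.18, against 0.11 over all genes), where 30.9% of all genes rose and 8.66% fell. With median-of-ratios scaling 9 rose and 5 fell, against 18.3% and 18.1% of all genes. Examples were Ppib, Plod3 and Crtap at 0.32 ± 0.04, 0.44 ± 0.07 and 0.83 ± 0.13, and 2 of 17 basement membrane partners rose (1 with median-of-ratios scaling), the linker Nid2 by 1.17 ± 0.34 (adjusted p = 0.0162).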

How the data were processed

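Retinal RNA-seq of 42 mice was used, 6 per group, with groups taken from the deposited sample labels. The authors aligned reads to the mouse genome GRCm38 with STAR (its version is not given in the sources used here) and deposited FPKM per gene and, in the same table, signal values that are the gene counts of each library scaled by 1 factor. How the reads were counted is not given in the sources used here. Reads in genes were recovered from these normalized count columns of 36 of 42 libraries, in which 100% of the low values lay within 0.1 of a step of a whole multiple. The other 6 were left out because their step lies too close to 1. They are replicates 3 and 5 of Normoxia, 4 of 07-06h-ZH, 6 of 14-06h-ZH, 1 of 14-11w-ZH and 4 of 14-48h-JFJ. Fits with edgeR ran without them, so on fewer mice in every comparison that holds any of them. The authors tested counts with edgeR. Because FPKM are not counts, genes were tested here with limma 3.58.1 (R 4.3.3) on log2(FPKM + 0.1), with a mean-variance trend and robust variances, 12 mice per pairwise fit. A gene entered a fit where each group had it above 0 in all but at most 3 mice, and p-values were adjusted over all genes. Relations were tested by permuting mice within groups. Promoter windows are from RefSeq (GRCm38.p6), and gene positions from the annotation of GRCm38.

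For each comparison the text names every chain past both limits, up to 8 further chains with the smallest adjusted p, and always Col1a1, Col4a1, Col4a2 and Col18a1. For levels it names the 10 highest chains, and for each other list up to 3 genes with the smallest adjusted p. Alternatives were pseudocounts of 1 and 0.01, a mean of at least 1 FPKM, no filter, median-of-ratios scaling, edgeR 4.0.16 on recovered reads, all 7 groups in 1 fit, a replicate block, no trend or robust option, terms for pigment or Y-linked genes, and leaving out each mouse. The lens term and the fits without libraries high in lens or low in stromal markers were added after the data were seen, and so was a second, lower limit for the lens markers, chosen after the result at the first was seen. A lens marker and a rod marker of the original lists are not used or reported here. The chains and lists were chosen with earlier results of these data known. Scripts were tested on simulated data. Python 3.11.15, numpy 2.4.6, pandas 2.3.3 and matplotlib 3.10.9 were used.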

Additional observations from a re-analysis of the deposited data

Results flagged for a closer look

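In 15 of 105 sets of 6 mice of 1 group, the highest or lowest mouse stood apart from the rest, with a gap to the nearest mouse above Dixon's critical value at 95% for the range of 6 values. For independent sets of normally distributed values, chance gives such a gap in about 5%. Here the chains share the same mice, so the sets are not independent and the count is not a test.

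Of these, 8 were type IV chains in libraries high in lens markers. In 14-48h-ZH replicate 1, Col4a1 was 266.4 FPKM, Col4a2 109.1 FPKM and Col4a3 33.91 FPKM. In 14-48h-JFJ replicate 6 they were 330.0, 130.0 and 29.01 FPKM in the same order. In 14-07w-JFJ replicate 5, Col4a1 was 198.9 FPKM and Col4a2 77.19 FPKM. That mouse also had the highest Col1a2 of its group, with 7.866 FPKM.

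Low values stood out in libraries low in stromal markers, with Col18a1 at 7.063 FPKM in 14-48h-ZH replicate 4 and Col1a2 at 0.912 FPKM in 14-06h-ZH replicate 1. In 14-06h-ZH replicate 6 Col6a1 was lowest with 23.58 FPKM. Single high mice were 07-06h-ZH replicate 1 with 24.77 FPKM of Col7a1, 07-06h-ZH replicate 6 with 0.4998 FPKM of Col3a1, and 14-48h-JFJ replicate 1 with 9.094 FPKM of Col8a1.

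For 13 chains the change of JFJ over ZH differed between 48 h and chronic exposure in the limma interaction test, each with a more positive change at 48 h than in chronic exposure. The difference, 48 h minus chronic, was 0.77 for Col24a1, 0.70 for Col9a1, 0.70 for Col6a4, 0.67 for Col5a1, 0.62 for Col17a1, 0.61 for Col15a1, 0.61 for Col6a1, 0.58 for Col6a2, 0.57 for Col7a1, 0.57 for Col11a2, 0.54 for Col27a1, 0.51 for Col11a1 and 0.28 for Col2a1, on the log2 scale. Of all genes 26.5% passed in either direction, a share near that of the chains, and how many went each way was not counted. Under 7 alternatives 11 to 15 chains passed, and 21.5% to 28.3% of all genes.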

How the results depend on the processing

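Of the chain values put through the alternatives, 50 passed the test, and over 1333 alternatives 1195 kept their direction and stayed past the threshold, 137 no longer passed and 1 reversed, namely Col8a1 in 14-48h-JFJ over 14-48h-ZH with a term for pigment cell markers (-0.24). Another 41 did not pass, and of 1084 alternatives 1065 stayed so, 99 of them with the other sign. In 16 the adjusted p was at most 0.05 in the same direction (among them Col1a2 and Col8a2, named after their values were seen). Of these 16, Col4a1 in 14-48h-JFJ over 14-48h-ZH without the libraries high in lens markers is a description only. In 3 the adjusted p was at most 0.05 with the other sign, all in 07-06h-ZH over Normoxia. Col4a2 had 0.62 with a lens term. Without the libraries over the lower limit of 80 FPKM of lens markers, Col4a1 had 0.81 and Col4a2 had 0.65. This limit was chosen after the result at 100 FPKM was seen and takes out the normoxic libraries with the highest Col4a1. The values at 80 FPKM are therefore a description and not a test passed. The values of both chains at the limit of 100 FPKM are a description as well.

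The number of chains that differed became 6, 11 and 8 in 07-06h-ZH, 14-06h-ZH and 14-48h-ZH over Normoxia with a term for Y-linked genes, which could not be fitted in 14-11w-ZH over Normoxia since all mice of that pair carry them. In 14-11w-ZH over Normoxia it was 0 without the trend and robust options, with edgeR and without the libraries over either limit of lens markers. In 14-48h-JFJ over Normoxia it was 3 without the trend and robust options, with edgeR and with the pigment term, 0 with the Y-linked term and 2 without the libraries high in lens markers. In 14-07w-JFJ over Normoxia it was 3 with median-of-ratios scaling and the lens term, 2 with all 7 groups in 1 fit and without the libraries low in stromal markers, and 0 without the trend and robust options, with edgeR, with the pigment and Y-linked terms and without the libraries over either limit of lens markers. In 14-48h-JFJ over 14-48h-ZH it was 8 with the pigment term. In 14-07w-JFJ over 14-11w-ZH it was 2 with all 7 groups in 1 fit, edgeR and the lens term, 3 with the replicate block, and 0 without the trend and robust options, with the pigment term and without the libraries high in lens markers. The cause was not tested, and the edgeR fits just named were on fewer mice as well. With the Y-linked term 31.0%, 24.2% and 25.8% of all genes differed in 07-06h-ZH, 14-06h-ZH and 14-48h-ZH over Normoxia. For 14-11w-ZH over Normoxia this share was 0.0848% to 0.907% in the fits just named, in place of 3.96%. For 14-48h-JFJ over Normoxia it was 1.23% to 3.32%, in place of 5.33%. For 14-07w-JFJ over Normoxia, in place of 2.04%, it was 1.18% to 5.15% with 2 or 3 chains and 0.571% to 1.03% with 0. Leaving out 1 mouse at a time gave 9 to 17, 15 to 17, 12 to 15, 0 to 2, 3 to 6, 0 to 2, 13 to 20, 0 to 2 and 0 to 1 chains, in the order 07-06h-ZH, 14-06h-ZH, 14-48h-ZH, 14-11w-ZH, 14-48h-JFJ and 14-07w-JFJ over Normoxia, 14-48h-JFJ over 14-48h-ZH, 14-07w-JFJ over 14-11w-ZH and 14-48h-ZH over 14-06h-ZH. The 9 in 07-06h-ZH over Normoxia came without its replicate 6, where 39.1% of all genes differed.

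Same-numbered mice of different groups correlated in their deviations between -0.69 and 0.71, with at most 4 of 6 pairs over 0.1 in any comparison, so the numbers do not pair them. With the replicate block the counts were 13, 16, 14, 1, 5, 1, 18, 3 and 0 in the same order. In the comparisons with Normoxia 39.9%, 31.4%, 34.6%, 3.54%, 4.44% and 1.40% of all genes differed with it. Each of these shares was lower than without the block. Beside the remaining counts of chains in this section the share of all genes is not given. Chains under 1 FPKM rest on few reads, which limits the precision of their fold changes.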
